A study of Homo sapiens with 4 samples.

Results

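Accessible chromatin was examined at 10 genes of retinoic acid signalling and of the NR2F family of orphan nuclear receptors, namely NR2F1, NR2F2, NR2F6, RARA, RARB, RARG, RXRA, RXRB, CRABP2 and CYP26B1. A locus was defined as the annotated gene with 100 kb on either side, and every peak that overlapped it was taken. In control, 111 of 47610 peaks fell into the 10 loci, in sgSNHG1 99 of 42682, and no locus overlapped another. The cells were SK-N-BE(2)C, an established MYCN-amplified neuroblastoma line, and the assay was ATAC-seq, in which the Tn5 transposase inserts adapters into open chromatin. The control group had the genotype wildtype in the labels and carried a non-targeting control gRNA, and the sgSNHG1 group had the genotype SNHG1 knockout, made with Cas9 and dual guide RNAs against the long noncoding RNA gene SNHG1. Knockout is the word of the labels. The authors state that SNHG1 could not be knocked out completely and that its expression was reduced. The sgSNHG1 cells had been transfected, selected with puromycin and expanded from sorted single cells. The authors call the control a clone as well, but do not describe these steps for it separately. Each group is therefore clonal, and which sgSNHG1 clone was used for ATAC-seq is not given in the sources used here. Each group had 2 replicates, but the authors combined them before peak calling, so that the data analysed here are 1 peak list per group. No spread between replicates was therefore available, no difference between the groups was tested, and errors below cover the counting of fragments only.

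Retinoic acid is made from vitamin A and acts in the nucleus through heterodimers of a retinoic acid receptor (RARA, RARB or RARG) and a retinoid X receptor (RXRA, RXRB). These dimers bind direct repeats of a short hexamer and recruit corepressors without ligand and coactivators with it. CRABP2 carries retinoic acid to the receptors and CYP26B1 degrades it, while NR2F1, NR2F2 and NR2F6 (the COUP-TF family) bind overlapping repeats. Of these, NR2F1 and NR2F2 are known in neural crest development. Retinoic acid induces differentiation of many neuroblastoma lines and is used in treatment of this tumour.

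The repeats were searched directly in the peaks. The receptor hexamers searched were AGGTCA, the related sequence GGGTCA, the sequence AGTTCA, which occurs in RARB, and the sequence GGTTCA. A direct repeat was a pair of these in the same orientation with a spacer of 1, 2 or 5 bases, on either strand, within 100 bp of a summit. Such a repeat was found near 2 of 111 control summits at the loci (1.80%, Wilson 95% interval 0.496 to 6.33) against 76 of 47610 control summits in all (0.160%), and near 1 of 99 sgSNHG1 summits (1.01%, 0.179 to 5.50) against 50 of 42682 (0.117%). All 3 matches were in promoter peaks of members, at 2 sites, 1 in RARB and 1 in CRABP2. They are shown here 5′ to 3′ on the strand of the gene (GRCh38, with the hexamers in capitals), because they are the only repeats of this kind near the summits of the locus peaks. The RARB site spans chr3:25428204-25428232 on the plus strand and the CRABP2 site chr1:156706020-156706048 on the minus strand.
RARB repeat with spacer 5: gggtagGGTTCAccgaaAGTTCActcgca
CRABP2 repeat with spacer 1: ctggatccAGTTCAgGGTTCAatggagct

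The repeat of RARB lay 45 bp upstream of a transcript start at position 25428263 of chromosome 3, in sequence that other RARB transcripts starting further upstream annotate as UTR. It was inside a peak of both lists, 37 bp before the control summit and 47 bp after the sgSNHG1 summit. The repeat of CRABP2 lay 218 bp upstream of the CRABP2 start, in sequence with no annotated gene, and 8 bp from the summit of a peak that only the control list contained. A match of letters is a description, and binding was not measured. The hexamers AGTTCA and GGTTCA are those of the RARB repeat itself, so that its match was fixed by the choice of hexamers, and the higher share at the loci is not independent of it. With AGGTCA as the only hexamer no repeat was found at the loci in either list. The single hexamer AGGTCA was near 10 of 111 control summits at the loci (9.01%) and 8.52% of all control summits, and near 8 of 99 sgSNHG1 summits (8.08%) and 7.75% of all. Among 34961 RefSeq promoter windows (GRCh38.p14, 250 bases before to 50 after a start), 0.260% held a repeat and 13.8% held AGGTCA. The 9 members with such windows had 18 of them. Of these 18 windows, 1 held the repeat, at RARB, and 2 held AGGTCA, at RARA and RARB. The base composition of the windows differed, with a median GC content of 63.2% around the control summits at the loci and 55.7% around all control summits.

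Next, promoter peaks of some members are shown, chosen for the reason given with each, without annotated UTR bases and on the strand of the gene (GRCh38). Capitals mark receptor hexamers on either strand. The peaks of CRABP2 (chr1:156705906-156706061, minus) and NR2F6 (chr19:17245924-17246077, minus) were in the control list only. The NR2F1 sequence (chr5:93581462-93581622, plus) was a peak in the sgSNHG1 list only. The NR2F2 sequence (chr15:96330508-96330699, plus) is from the promoter peak with the highest control fold enrichment among the 10 genes. The RXRA sequence (chr9:134316823-134316943, plus) is the peak of the member with the highest log2 ratio between the highest promoter peaks of the lists.
CRABP2: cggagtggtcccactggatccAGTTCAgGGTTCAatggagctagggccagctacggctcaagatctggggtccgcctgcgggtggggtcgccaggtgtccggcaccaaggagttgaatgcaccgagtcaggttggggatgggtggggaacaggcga
NR2F6: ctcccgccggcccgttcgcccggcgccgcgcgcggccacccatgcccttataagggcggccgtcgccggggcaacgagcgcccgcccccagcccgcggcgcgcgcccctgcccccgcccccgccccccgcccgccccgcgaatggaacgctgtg
NR2F1: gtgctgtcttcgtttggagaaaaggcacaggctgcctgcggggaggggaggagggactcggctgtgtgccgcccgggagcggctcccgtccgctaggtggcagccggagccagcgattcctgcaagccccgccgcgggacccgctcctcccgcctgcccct
NR2F2: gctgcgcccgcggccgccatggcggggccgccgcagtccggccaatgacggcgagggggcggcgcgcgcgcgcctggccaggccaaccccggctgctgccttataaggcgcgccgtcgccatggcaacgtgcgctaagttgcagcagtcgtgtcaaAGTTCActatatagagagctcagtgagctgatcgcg
RXRA: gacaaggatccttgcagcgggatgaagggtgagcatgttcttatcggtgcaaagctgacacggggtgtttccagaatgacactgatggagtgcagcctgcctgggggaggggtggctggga

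The NR2F6 sequence was the richest of the 5 in GC (83.8%, with 29 CG dinucleotides in 154 bases) and held no hexamer. The CRABP2 sequence had a GC content of 63.5% with 8 CG dinucleotides in 156 bases, and its 2 hexamers were those of the repeat. The NR2F2 sequence had 26 CG dinucleotides in 192 bases and 1 hexamer. The RXRA sequence, which lies 212 bp upstream of the first RXRA start at its summit, had only 3 CG dinucleotides in 121 bases and no hexamer.

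Peaks are described by the fold enrichment of the authors' table, which is the fragment pileup at the summit over the local background of the same list, and by the pileup itself, solved from the deposited values. Ratios are log2 of sgSNHG1 over control with 1 counting standard error. At SNHG1 itself both lists had a promoter peak, at 5.71 and 6.04 (pileups of 36 and 27), so that accessibility of the promoter did not separate the groups and does not check the labels. Promoter peaks were present in both lists for 9 of 10 neuroblastoma markers, among them HAND2, GATA3, ISL1 and DBH, with none for TH, and for 0 of 6 markers of blood, liver, epithelium, endothelium and muscle. Among all protein-coding genes, 12714 of 19970 had promoter peaks in both lists. Over all pairs of peaks the median log2 ratio was -0.05, and -0.01 for pileups scaled to the lowest background of each list. Peaks of the sgSNHG1 list were narrower, with a median width of 238 bp against 332 bp.

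Of the 10 genes, 8 had a peak within 3 kb of a transcript start in both lists and 2, NR2F6 and CRABP2, in the control list alone. The corresponding share among protein-coding genes with a control promoter peak was 8.70% (1212 of 13926). The log2 ratio passed 2 counting errors in 0 of the 8 genes, against 1.77% of 12714 protein-coding promoters, and none was at -0.5 or below or at 0.5 or above, where 7.32% and 2.01% of them lay. Their ratios ran from -0.39 for RARA to 0.39 for RXRA, with a median of 0.05 against -0.07 over all protein-coding promoters. On the scaled pileup the median of the 8 was -0.02, again 0 of 8 passed 2 counting errors, and RXRA was above 0.5 at 0.65, as were 6.87% of all.

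**Figure D1:**
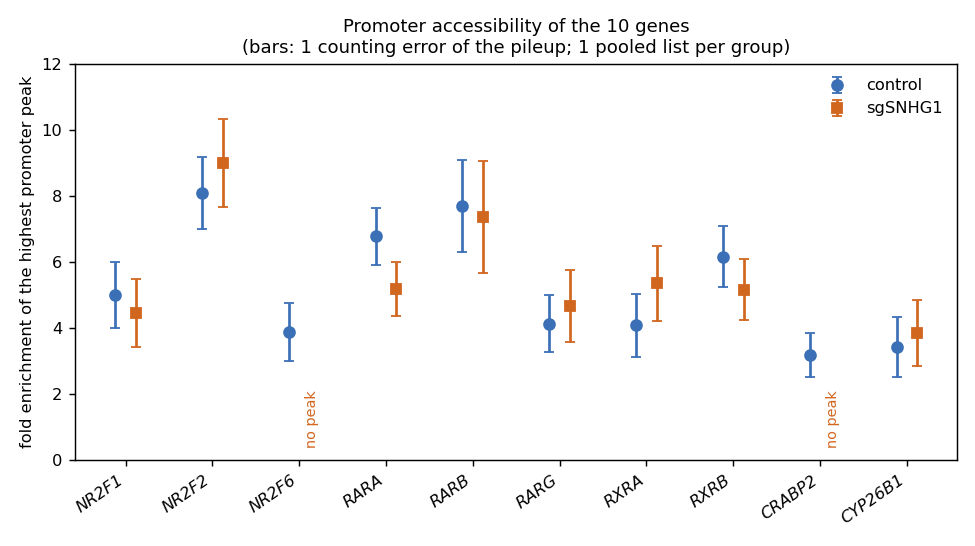
Fold enrichment of the highest promoter peak of each gene (y axis, pileup over local background) in the control list (blue circles) and the sgSNHG1 list (orange squares), with bars of 1 counting error. The bars of the lists overlap for the 8 genes with both values, and NR2F6 and CRABP2 have no sgSNHG1 peak.

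Among the NR2F receptors, NR2F2 (ENSG00000185551.15, chr15:96325938-96340263, plus), known in mesenchymal and venous development, had the highest fold enrichment of the 10 genes at its promoter. The control list gave 8.07 and the sgSNHG1 list 9.0, with pileups of 55 and 46 fragments. The log2 ratio was 0.16 ± 0.29, and the summits lay 92 and 57 bp upstream of a start within an intron of longer NR2F2 transcripts. In the control list this peak stood at the 56.3 percentile of protein-coding promoters. A second, weaker promoter peak was present in each list at a different site, at 3.61 and 3.60.

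The promoter of NR2F1 (ENSG00000175745.15, chr5:93583222-93594611, plus), a regulator of neural patterning, had a peak in each list, but not at the same site. The control peak (fold enrichment 5.00, pileup 25) covered chr5:93584183-93584426 in the 5′ part of the gene, entirely in sequence annotated as UTR. The sgSNHG1 peak (4.44, pileup 19) covered chr5:93581462-93581622, upstream of NR2F1 and inside the divergent noncoding gene NR2F1-AS1. The log2 ratio of these unlike sites was -0.17 ± 0.44. NR2F6 (ENSG00000160113.6, chr19:17231883-17245919, minus), a receptor best known as a repressor in lymphocytes, had a weak control peak 114 bp upstream of its start with a fold enrichment of 3.88, a pileup of 19 and a -log10 q of 5.23. No sgSNHG1 peak overlapped its promoter.

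Of the ligand-binding receptors, RARA (ENSG00000131759.18, chr17:40309180-40357643, plus) is the broadly expressed retinoic acid receptor. Its highest promoter peak, in an intron at 40311092 to 40311359, went from 6.77 in the control to 5.17 in the sgSNHG1 list (pileups 61 and 39, log2 ratio -0.39 ± 0.30). A different RARA start, at which the summits lay 62 and 63 bp upstream, had the opposite order, with 3.91 in control and 4.74 in sgSNHG1 and a ratio of 0.28. RARA had 3 promoter peaks in control and 5 in sgSNHG1, where the added peaks were weak, with fold enrichments of 2.94 and 3.16.

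RARB (ENSG00000077092.20, chr3:24687887-25597932, plus) is itself a classical retinoic acid target. It had 5 promoter peaks in each list over its 20 annotated start sites. The peak that holds the repeat shown above had values of 5.93 (control) and 7.36 (sgSNHG1), with nearly the same pileup (18 and 19) and a log2 ratio of 0.31 ± 0.47. The highest control promoter peak was a different one further into the gene (25455647 to 25456207), with 7.69 in control and 6.45 in sgSNHG1 (pileups 30 and 17). The ratio of the highest promoter peak in each list, at these unlike sites, was -0.06 ± 0.42.

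RARG (ENSG00000172819.17, chr12:53210567-53232980, minus) had low promoter peaks in both lists, 3 in control with a highest fold enrichment of 4.12 and 4 in sgSNHG1 with a highest of 4.66, at different sites. At the shared site next to its start the values were 4.12 and 4.39 (pileups 23 and 18). RXRA (ENSG00000186350.12, chr9:134317098-134440585, plus), the partner of many nuclear receptors, went from 4.07 in control to 5.35 in sgSNHG1 (pileups 18 and 22, log2 ratio 0.39 ± 0.46). RXRA also had a second promoter peak in control alone, with a fold enrichment of 3.80. The promoter peak of RXRB (ENSG00000204231.11, chr6:33193588-33200665, minus) is shared with the divergent gene SLC39A7 and had 6.15 in control and 5.16 in sgSNHG1 (pileups 44 and 31, ratio -0.26 ± 0.34).

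The genes of retinoic acid handling had the lowest values. The CRABP2 promoter peak (ENSG00000143320.9, chr1:156699606-156705816, minus) had a control fold enrichment of 3.18, a pileup of 22 and a -log10 q of 4.28, at the 0.359 percentile of protein-coding promoter peaks, and no sgSNHG1 counterpart. CYP26B1 (ENSG00000003137.9, chr2:72129238-72147862, minus) had a weak shared peak, with summits 2708 and 2602 bp upstream and 3.42 in control and 3.84 in sgSNHG1 (pileups 14 and 15, ratio 0.17 ± 0.54). In control the promoter peaks thus ranked NR2F2, RARB, RARA, RXRB, NR2F1, RARG, RXRA, NR2F6, CYP26B1 and CRABP2, and in this order neighbours differed by less than the sum of their counting errors.

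Beyond the promoters, the peaks of the whole loci were compared. The ratio of peak numbers, sgSNHG1 over control, was 0.892 at the loci and 0.896 over the genome. Of the 111 control peaks, 26 (23.4%, Wilson 95% interval 16.5 to 32.1) were not overlapped by an sgSNHG1 peak, against 33.3% of all control peaks. Of the 99 sgSNHG1 peaks, 14 (14.1%, 8.61 to 22.3) were not overlapped by a control peak, against 21.8%. Promoters of other genes made up the largest class, with 59 control and 53 sgSNHG1 peaks, of which 9 and 3 were in that list alone. Members' own promoters held 20 peaks in each list, with 7 in that list alone on either side. Gene bodies of members held 11 and 9 peaks, and the remaining sequence 21 and 17. Over all promoters of the genome 24.2% of control and 12.5% of sgSNHG1 peaks were in that list alone, and away from promoters 41.0% and 30.2%. For the 7 of 20 at members' promoters the interval was 18.1% to 56.7% in each list. It contained the promoter share of the genome for control and lay above that share for sgSNHG1. These shares were not matched for peak strength. Median fold enrichment at members' promoters was 4.25 in control and 4.55 in sgSNHG1, against 6.09 and 5.91 over all promoter peaks. The 7 sgSNHG1 peaks had -log10 q values from 2.82 to 6.28. Over the genome, weaker peaks were more often in a single list. Whether the share at members' promoters differs at equal strength was not tested.

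**Figure D2:**
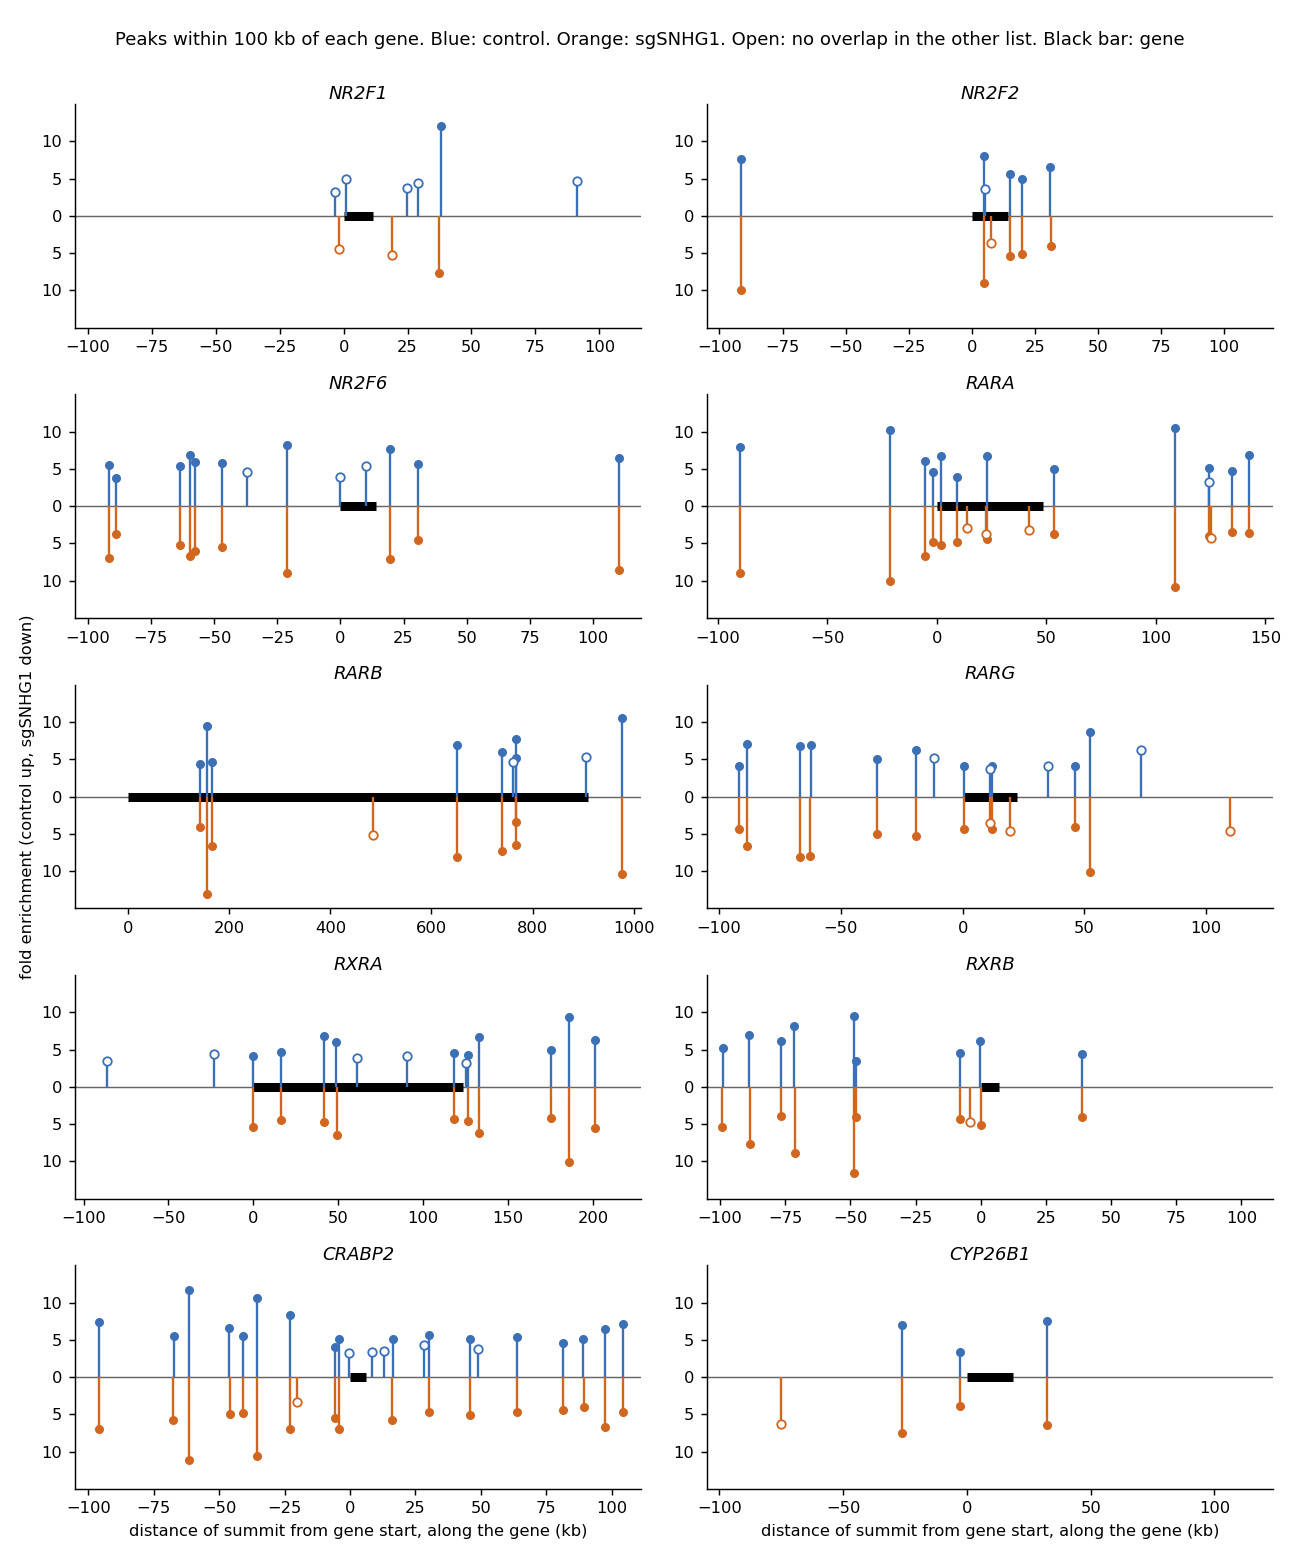
Peaks of the 10 loci by the distance of the summit from the gene start along the gene (x axis, kb) and by fold enrichment (y axis, control upward in blue, sgSNHG1 downward in orange), with filled heads for peaks that overlap a peak of the other list, open heads for those that do not, and the gene as a black bar. Most tall peaks are mirrored in the other list, while at NR2F1 5 of 6 control peaks and 2 of 3 sgSNHG1 peaks have open heads. Over the genome 33.3% of control and 21.8% of sgSNHG1 peaks have no overlap.

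Peaks in a single list were weak. The 26 control peaks without an overlap had a median -log10 q of 5.41 (range 3.07 to 11.0), and the 85 with one had a median of 15.4. In sgSNHG1 the 14 peaks without an overlap had a median of 5.20 (2.82 to 9.98), and the others 11.9. Of control locus peaks with a -log10 q under 5, 8 of 11 were not overlapped against 76.5% of all, from 5 to 10 17 of 38 against 46.7%, from 10 to 20 1 of 38 against 15.5%, and at 20 or more 0 of 24 against 1.47%. For sgSNHG1 the counts were 7 of 17 against 52.0%, 7 of 34 against 23.8%, 0 of 26 against 6.42% and 0 of 22 against 0.772%. The genome share lay inside the Wilson interval of the loci in 7 of the 8 classes. The exception was the control class from 10 to 20, with an interval of 0.466% to 13.5% below the 15.5% of all peaks.

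**Figure D3:**
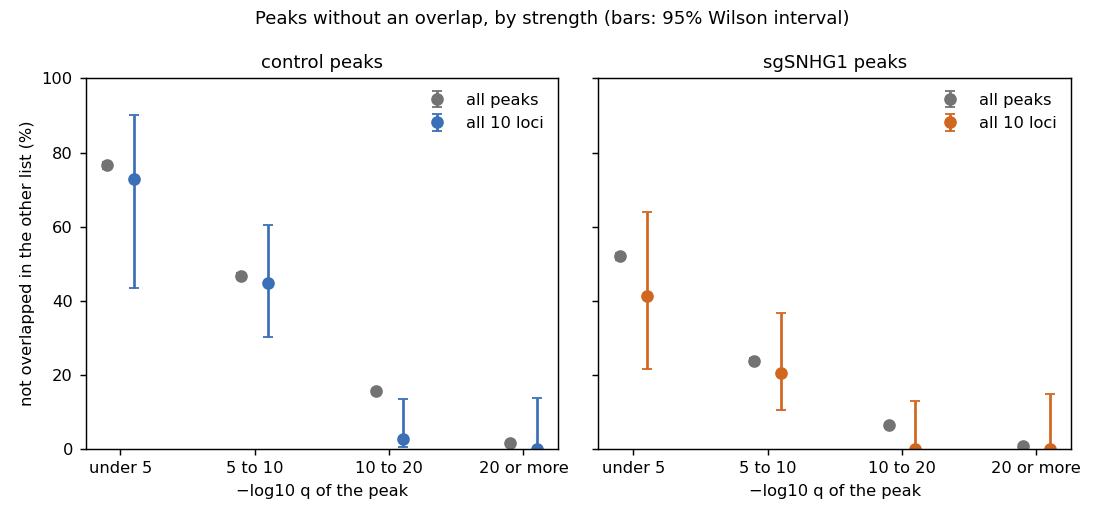
Share of peaks with no overlap in the other list (y axis, %) by the -log10 q of the peak (x axis), for control peaks (left) and sgSNHG1 peaks (right), at the 10 loci (coloured) and over the genome (grey), with 95% Wilson intervals. The share falls with strength in both sets, from 8 of 11 to 0 of 24 among control peaks of the loci.

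The 85 peak pairs of the loci had a median log2 ratio of -0.02 (quartiles -0.22 and 0.12), close to the -0.05 of all 31663 pairs (-0.27 and 0.17), and 45 of the 85 were lower in sgSNHG1. On the scaled pileup the median was 0.10, with 27 of 85 lower, against 50.9% of all pairs, while on fold enrichment 55.6% of all pairs were lower. The sign of this small value thus rests on the measure. At -0.5 or below were 8 of 85 pairs, against 9.06% of all pairs. At 0.5 or above were 0 of 85, against 5.37%. On the scaled pileup the counts were 6 and 8 of 85, against 11.8% and 11.2%, so that the absence of high ratios held for fold enrichment alone. Beyond 2 counting errors, 2 of 85 pairs were lower in sgSNHG1 and 0 higher, against 1.55% and 1.13% of all pairs. With the scaled pileup these were 2 lower and 1 higher, against 4.63% and 2.97%, and of the 2 lower pairs on fold enrichment the one at NR2F1 remained. The sgSNHG1 peak was the narrower of the pair in 67 of 85, with a median log2 width ratio of -0.35 against -0.42 over all pairs.

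**Figure D4:**
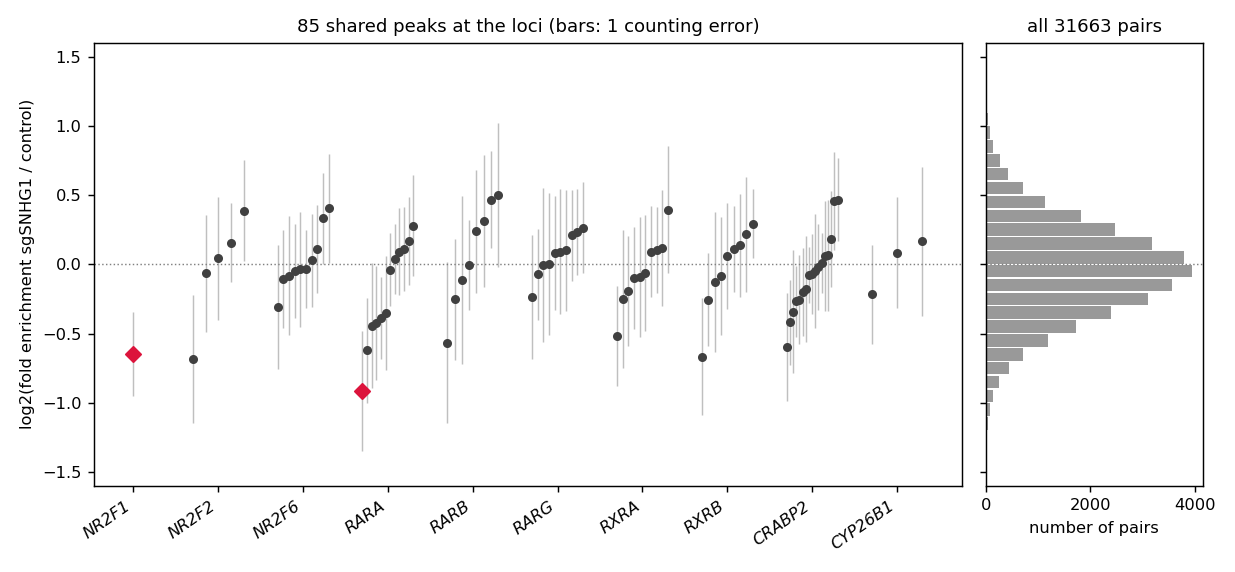
Ratio of sgSNHG1 to control fold enrichment on a log2 scale (y axis) for the 85 shared peaks by locus (x axis, left, bars of 1 counting error), and the histogram of all 31663 pairs on the same axis (right, number of pairs). Red diamonds mark the pairs beyond 2 counting errors, 1 at NR2F1 and 1 at RARA, both lower in sgSNHG1.

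The pair at the NR2F1 locus beyond 2 counting errors was the only shared peak there. It covered chr5:93620624-93621806 in control, with its summit in an intron of FAM172A and next to the start of the microRNA gene MIR2277, 29439 bp from the nearest NR2F1 start. It stood at 12.07 in the control list and at 7.70 in the sgSNHG1 list, with pileups of 79 and 32 and a log2 ratio of -0.65 ± 0.30. The control summit was at 93621412 and the sgSNHG1 summit at 93620700, in a UTR of FAM172A. The ratio thus compares heights at unlike positions within the peak. On the scaled pileup the ratio was -0.95. It was also the highest control peak of the 10 loci. The 5 control peaks not overlapped at NR2F1 had -log10 q values from 3.07 to 9.42. In the 5 Mb on either side of the locus there were 102 control and 100 sgSNHG1 peaks, with a median scaled log2 ratio of -0.02 over 68 pairs.

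At RARA the pair beyond 2 counting errors on fold enrichment lay at chr17:40451513-40451769, in an intron of IGFBP4, a gene for an insulin-like growth factor binding protein downstream of RARA. The values were 6.82 and 3.61 (pileups 36 and 16, log2 ratio -0.92 ± 0.43). Its ratio on the scaled pileup was -0.81, within 2 counting errors. The peak inside RARA itself at 40331919 to 40332898 went from 6.70 to 4.36 (pileups 46 and 21, ratio -0.62 ± 0.38), within 2 counting errors on fold enrichment and beyond them on the scaled pileup, at -0.77. The locus as a whole held 13 control and 16 sgSNHG1 peaks, with a median ratio of -0.20 over 12 pairs. Its highest peak in both lists, at the promoter of the topoisomerase gene TOP2A, had nearly the same value in each, 10.49 and 10.78.

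RARB contained the highest sgSNHG1 peak of the loci, at chr3:24844009-24844314 in an intron, with a fold enrichment of 13.09 against 9.47 in control (pileups 38 and 30, log2 ratio 0.47 ± 0.35). A neighbouring intronic peak had the highest ratio of all 85 pairs, 0.50 ± 0.52 and before rounding just under the limit of 0.5, with 4.68 in control and 6.62 in sgSNHG1. The lowest ratio at RARB was -0.57 ± 0.58, at an intronic promoter peak with 5.10 and 3.45. The local background at the RARB locus had a median equal to the lowest background of the list in both lists, where a fragment more or less moves the fold enrichment most. At RARG 10 pairs had ratios from -0.23 to 0.26, the narrowest range among loci with 5 or more pairs.

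RXRA had 15 control and 10 sgSNHG1 peaks, and all 5 peaks in a single list were control peaks. These were 33.3% of its control peaks, the same share as over all control peaks (33.3%). Its lowest pair was an intronic peak at chr9:134358562-134358976, with 6.85 in control and 4.78 in sgSNHG1 (pileups 49 and 24, ratio -0.52 ± 0.36). At RXRB every control peak was overlapped (9 of 9), and a peak 3945 bp upstream of the start, near HSD17B8, was present in sgSNHG1 alone with a fold enrichment of 4.68. The lowest RXRB pair, -0.67, was at B3GALT4, with 6.15 and 3.87. NR2F6 had 13 control and 10 sgSNHG1 peaks with a median ratio of -0.03, and a control peak in its coding sequence (fold enrichment 5.42, -log10 q 8.93) had no overlap. NR2F2 had 6 peaks in each list and 5 pairs, of which the lowest, -0.68 ± 0.46, was at a downstream noncoding gene (6.56 and 4.09) and the highest, 0.39, was at the start of NR2F2-AS1 and LINC02157 (7.61 and 9.95).

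CRABP2, in a gene-dense region, had the most peaks, 22 in control and 18 in sgSNHG1. While its promoter peak was in the control list only, a shared peak with summits 4046 and 4127 bp upstream of the start was higher in sgSNHG1, with 5.08 and 7.02 (pileups 42 and 50, ratio 0.47 ± 0.30). Its ratio on the scaled pileup was 0.61, beyond 2 counting errors. Over 246 pairs within 5 Mb of the locus the median ratio was 0.06 on fold enrichment and 0.20 on the scaled pileup. The part of these offsets in the ratios at CRABP2 was not tested. CYP26B1 had 3 control peaks, all of them overlapped (interval of the share not overlapped 0% to 56.1%, against 33.3% of all), and 4 sgSNHG1 peaks. The fourth lay in an intron of EXOC6B with a fold enrichment of 6.25.

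The other genes of the pathway were taken from 4 lists. For comparison, of all 19970 protein-coding genes 12714 had promoter peaks in both lists. Another 1212 had them in control alone, 396 in sgSNHG1 alone and 5648 in neither. Among 18 genes of retinoid transport and metabolism, 9 had promoter peaks in both lists, 2 in control alone, 1 in sgSNHG1 alone and 6 in neither, and the median ratio of the 9 was 0.03 (scaled pileup -0.15). RDH5, a retinol dehydrogenase, was on fold enrichment the only 1 of 55 genes of the 4 lists beyond 2 counting errors, against 1.77% of all protein-coding promoters. On the scaled pileup 5 of 55 were, RDH5 and GPS2 higher and LRAT, NR3C2 and the corepressor subunit gene TBL1XR1 lower, against 7.34% of all. For TBL1XR1 the highest promoter peaks of the lists were at unlike sites, chr3:177197324-177198110 in control and chr3:177051551-177051695 in sgSNHG1. Its ratio is thus not a change at a shared site. The RDH5 value went from 4.24 to 7.55 (pileups 28 and 49), a ratio of 0.83 ± 0.34. STRA6, the retinol-binding protein receptor, and ALDH1A2, which makes retinoic acid, had ratios of 0.22 and 0.16, that of STRA6 between unlike sites. LRAT, which esterifies retinol, had the lowest ratio at -0.61 ± 0.49, followed by -0.09 for RDH11 and -0.08 for RDH10. RBP4, which carries retinol in blood, and ALDH1A1 had a promoter peak in control alone (fold enrichments of 4.19 and 3.74), and DHRS3, a retinaldehyde reductase, in sgSNHG1 alone (5.72). CYP26A1, CYP26C1, CRABP1, ALDH1A3, DHRS9 and BCO1 had none in either list.

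Of 40 other nuclear receptors, 24 had promoter peaks in both lists, with a median ratio of -0.07, as over all protein-coding promoters. The lowest were PPARD (-0.45 ± 0.36), NR6A1 (-0.36) and VDR, the vitamin D receptor (-0.32), and the highest RORB (0.49 ± 0.33), NR3C2, the mineralocorticoid receptor (0.44), and NR1D2 (0.36). For NR3C2 the scaled pileup gave the opposite sign, -0.54. Receptors with a promoter peak in control alone included RXRG, PPARA, THRB, NR2E1 and ESR1, the highest being THRB with 7.47. PPARG and ESRRB had one in sgSNHG1 alone, with 4.05 and 6.60, and 8 receptors had none.

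All 16 corepressors and coactivators had promoter peaks in both lists, with a median ratio of 0.02. The lowest were the corepressor NRIP1 (-0.62 ± 0.36), the methyltransferase CARM1 (-0.46) and NCOA1 (-0.35), and the highest GPS2, a subunit of the NCoR complex (0.73 ± 0.48), the acetyltransferase EP300 (0.53) and SIN3A (0.23). Of 14 genes known to respond to retinoic acid, 6 had promoter peaks, each in both lists, with a median of -0.16 (scaled pileup -0.04). The share with a control promoter peak was thus 42.9%, against 69.7% of all protein-coding genes. MEIS1 had the highest ratio (0.33 ± 0.31), and RARRES1 (-0.38 ± 0.30), MEIS2 (-0.28, between unlike sites) and NTRK2 (-0.22) the lowest.

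**Figure D5:**
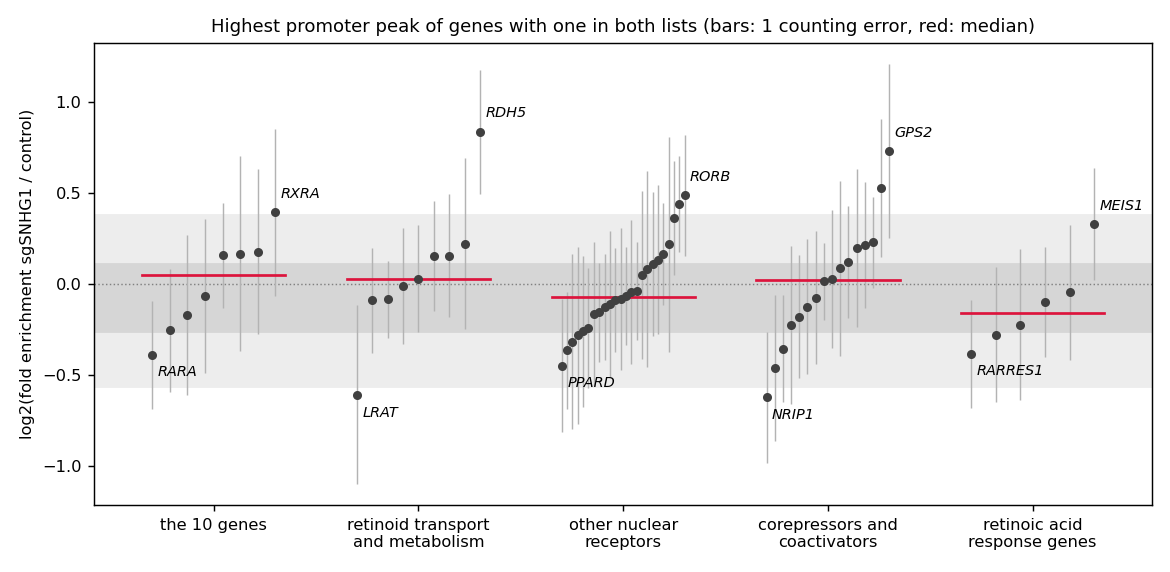
Log2 ratio of the highest promoter peak, sgSNHG1 over control (y axis), for genes with a promoter peak in both lists in each gene list (x axis), with bars of 1 counting error, medians in red, and the central 50% and 90% of all protein-coding promoters in dark and light grey. List medians lie between -0.16 and 0.05, and RDH5 at 0.83 is the gene farthest above the grey bands.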

How the data were processed

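ATAC-seq was done on 2 control and 2 sgSNHG1 samples of SK-N-BE(2)C cells. Per the labels and methods, the authors trimmed reads with cutadapt, aligned them to GRCh38 with BWA, removed duplicate, multiply mapped, mitochondrial and blacklisted reads with Picard and related tools, shifted read ends with deepTools, pooled the replicates of a group, and called peaks with MACS2. Versions and the peak threshold are not given in the sources used here, and no peak below a -log10 q of 2.00 (control) or 2.01 (sgSNHG1) was listed. Pooling hides differences between replicates, and duplicate removal limits the height of deep peaks. As the authors deposited it, fold enrichment is the ratio of pileup to local background at the summit, each plus 1. For the same summits the authors listed the -log10 of a Poisson p-value and of its adjusted form q. Summits are offsets from the peak start.

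From these the whole-number pileup was solved for each peak, within 0.001 of the deposited -log10 p, for 47609 of 47610 control and 42682 of 42682 sgSNHG1 peaks. On 5000 simulated peaks the solution was tested and returned 100% of the pileups. The median pileup was 24 and 20 fragments. The scaled pileup divides by the lowest background of each list (2.20 and 1.72). Peaks overlapped when they shared at least 1 bp, and pairs were mutual best overlaps. The counting error of a log2 ratio comes from the pileups by Poisson counting, and shares have Wilson 95% intervals, which cover counting error only. Genes and starts came from GENCODE version 44, and a promoter was 3 kb on either side of any transcript start. A promoter value was the highest peak there, so that the values of a gene in the lists can come from unlike sites. The 10 genes were named in full. Outside promoters, the highest peak of each list, the lowest and highest pair and the highest peak in a single list could be named per locus, and from each pathway list up to 3 lowest and 3 highest ratios and the genes with a promoter peak in a single list. The RARA intron peak and the genes named as lacking a promoter peak were chosen after their values were seen. A few items examined are not reported here. Members, lists and rules were chosen with earlier results of these data known. Alternatives tried were the peak threshold, the width of the locus and promoter, the overlap, the scaled pileup and the repeat definition. Python 3.11.15, numpy 2.4.6, scipy 1.17.1, pandas 2.3.3 and pysam 0.24.0 were used.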

Additional observations from a re-analysis of the deposited data

How the results depend on the processing

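No paired analysis was possible because the replicates of each group were pooled before peak calling, and for the same reason no replicate could be left out. With a -log10 q of at least 10, the loci held 62 control and 48 sgSNHG1 peaks, with 50 kb on either side 64 sgSNHG1 peaks, and counting only peaks whose nearest protein-coding start belongs to a member 49 and 43. The share of control locus peaks without an overlap was 32.7% with the nearest start and 41.4% when 50% of both peaks had to overlap. For sgSNHG1 it was 8.54% at a -log10 q of at least 5, 6.25% at 10 and 34.3% at 50% overlap. Shares over all peaks at these settings are not given here. The shares over all peaks given above hold for the main setting and cannot be set beside these values. The median log2 ratio of the locus pairs, -0.02, changed sign to 0.0094 and 0.060 at a -log10 q of at least 5 and 10, to 0.089 with the nearest start and to 0.10 on the scaled pileup. The median of the member promoters, 0.05, became -0.016 on the scaled pileup, -0.039 with the start of the gene record alone and -0.064 at a -log10 q of at least 5. Promoters of 1 kb turned RARA to 0.28 and RARB to 0.31, where a different peak became the highest. The share of peaks with a direct repeat was 0 in both lists with a spacer of 2 alone or with AGGTCA alone, and 0 in sgSNHG1 with a spacer of 1 alone or within 50 bp of the summit. With scaled pileups, a check added once the data had been seen, counts of locus pairs past a limit went from 0 to 8 at 0.5 or above and from 0 to 1 for pairs higher by more than 2 counting errors. The median counting error of a single locus pair was 0.38, which limits what depth can show for 1 peak.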
